A study of Mus musculus with 12 samples.

Results

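Genes that hypoxia-inducible factors are known to activate were followed in cultured primary mouse hepatocytes given fasting-hormone mimics, alone or with insulin or manganese. The 10 members are Vegfa, Adm, Slc2a1, Pfkfb3, Bnip3, Pdk1, Egln1, Egln3, Ndrg1 and Hk2. They were chosen by gene symbol, with earlier results of these data known. All 10 are among the 36144 genes of the deposited table. Every member passed the filter on low values. The cells came from wild-type C57BL/6J mouse liver by collagenase perfusion, and the labels speak of a single mouse. All groups spent 16 h overnight without serum. Each of the 4 groups holds 3 libraries. Mock cells received no hormone mimic. FD cells received forskolin at 10 µM, to raise cAMP, together with the glucocorticoid dexamethasone at 1 µM, over the last 5 h. FDI cells received the same mimics after 1 h with 100 nM insulin. FDMn cells received the same mimics after the overnight culture with 6 µM manganese chloride. Insulin and manganese were not given without the mimics in these groups, and their exposure times differ. The oxygen level of the cultures is not given in the sources used here.

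Hypoxia-inducible factors are pairs of an oxygen-regulated alpha subunit (Hif1a or Epas1) and the constant partner Arnt. When oxygen is plentiful, prolyl hydroxylases of the Egln family, which need iron and oxygen, mark the alpha subunit for destruction through Vhl. When oxygen falls the alpha subunit persists and the pair turns on genes of blood vessel growth, glucose uptake, glycolysis and mitochondrial turnover. Alpha subunits are controlled largely as proteins, which RNA sequencing does not measure. Insulin and other growth signals can also raise these genes.

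The libraries were those of hepatocytes. Albumin (Alb) lay between 22527 and 32589 TPM, where TPM is a length-scaled share of a library's transcripts. The summed TPM of 8 endothelial marker genes lay in Mock between 16.0 and 16.8, in FD between 19.3 and 28.9, in FDI between 17.2 and 22.7, and in FDMn between 23.4 and 26.8, with Kdr and Tek below 1 TPM in every library. Of 8 macrophage markers, Cd68 supplied most of the sum, which was 305 to 383 TPM in Mock, FD and FDI and 762 to 848 in FDMn, with Adgre1 and Clec4f below 1 TPM. Stellate cell and fibroblast markers summed to between 4.39 and 7.51 TPM. The 6 cholangiocyte markers gave sums in Mock from 1082 to 1126 TPM, in FD from 732 to 803, in FDI from 762 to 809, and in FDMn from 1412 to 1606, with Krt7 and Epcam below 1 TPM. Spp1 supplied most of that sum, with a mean of 1418 TPM in FDMn and 889 in Mock, while Cldn4 (51.7 and 176 TPM) and Sox9 (25.2 and 34.9 TPM) were lower in FDMn than in Mock. All 6 lymphocyte markers were below 1 TPM. The part of these cells in the results was not tested, and in bulk RNA fewer cells of a type and less RNA per cell cannot be told apart. In each group 1 library had the lowest value for most members, namely Mock replicate 2 for 8 of 10, FD replicate 3 for 8, FDI replicate 2 for 9 and FDMn replicate 1 for 8. FD replicate 3 also had an Alb level of 22624 TPM against 32589 and 30581 in the other FD libraries.

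Hypoxia-inducible factors bind a short core, A or G followed by CGTG, so the bases before the members' start sites are shown first. RefSeq promoters on GRCm38.p6 were at hand for 9 members in 12 windows. The letters ACGTG and GCGTG were searched on both strands in the 250 bases before each start. Of these 12 windows, 10 held at least 1 of the 2 motifs, and each of the 9 members had at least 1 such window. In Vegfa the window before the annotated gene start (chr17:46032378-46032627) held neither motif. The Vegfa matches lay in a window inside the gene (chr17:46025164-46025413). Among all 32851 promoter windows of this length 38.6% held at least 1 of the 2 motifs, 16.6% ACGTG and 28.2% GCGTG. The members' windows were between 38.4% and 86.0% G or C, and the part of base composition in these shares was not tested. The cAMP response element TGACGTCA was in none of the 12 windows and in 1.55% of all windows. Its shorter form TGACG overlaps ACGTG where TGACGTG occurs. TGACG was in 5 of the 12 windows, from 4 members, and in 17.8% of all windows. A match is a description of letters, not a bound site. The 5 stretches below are printed because they set 2 members that did not pass the insulin test (Bnip3, Pdk1) beside 3 that rose with insulin (Hk2, Adm, Egln3). They read 5′ to 3′ along the gene's strand and end before the annotated start. Capitals mark the core, which reads CACGT or CACGC when it lies on the other strand.
Bnip3 (chr7:138909520-138909756, minus strand): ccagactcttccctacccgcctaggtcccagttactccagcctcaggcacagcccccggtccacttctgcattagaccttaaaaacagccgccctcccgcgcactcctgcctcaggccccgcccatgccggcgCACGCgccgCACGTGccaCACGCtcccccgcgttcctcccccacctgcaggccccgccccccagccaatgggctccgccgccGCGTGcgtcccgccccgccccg
Pdk1 (chr2:71872974-71873223, plus strand): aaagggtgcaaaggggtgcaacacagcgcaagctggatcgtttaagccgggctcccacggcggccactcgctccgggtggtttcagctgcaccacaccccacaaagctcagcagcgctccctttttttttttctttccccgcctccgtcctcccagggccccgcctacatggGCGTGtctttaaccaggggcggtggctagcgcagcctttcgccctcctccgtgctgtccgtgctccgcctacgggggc
Hk2 (chr6:82774455-82774704, minus strand): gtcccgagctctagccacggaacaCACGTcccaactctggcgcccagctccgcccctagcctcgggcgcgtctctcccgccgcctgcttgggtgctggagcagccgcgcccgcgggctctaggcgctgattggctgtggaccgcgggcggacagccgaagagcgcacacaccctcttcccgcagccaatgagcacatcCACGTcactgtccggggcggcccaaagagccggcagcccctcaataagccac
Adm (chr7:110627407-110627656, plus strand): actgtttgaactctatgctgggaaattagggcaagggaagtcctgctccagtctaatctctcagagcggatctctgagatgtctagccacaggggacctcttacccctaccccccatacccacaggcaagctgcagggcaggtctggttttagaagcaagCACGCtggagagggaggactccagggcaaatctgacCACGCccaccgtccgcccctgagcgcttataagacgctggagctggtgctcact
Egln3 (chr12:54203875-54204124, minus strand): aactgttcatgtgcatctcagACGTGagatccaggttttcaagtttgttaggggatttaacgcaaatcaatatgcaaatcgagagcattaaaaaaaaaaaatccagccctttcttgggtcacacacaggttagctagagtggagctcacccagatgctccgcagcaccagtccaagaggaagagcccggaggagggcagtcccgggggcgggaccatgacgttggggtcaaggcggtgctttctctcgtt

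Bnip3 had the most matches, 5 in its RefSeq window, with 2 of them forming the palindrome CACGTG. Hk2 had 2 ACGTG matches, Adm 2 GCGTG matches, Pdk1 1 GCGTG and Egln3 1 ACGTG. Members of both kinds of insulin response thus held the core, and the number of matches was not tested against the response.

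The first comparison asked how the fasting mimics change the members. All 10 rose in FD over Mock, by a median of 1.32 on the log2(TPM + 1) scale, while the median of all 11544 genes tested was −0.15. On that scale 11.2% of all genes were called higher and 29.9% lower at an adjusted p under 0.05. The FD and Mock libraries did not overlap for any of the 10 members, all higher in FD, as for 13.3% of all genes. With median-of-ratios scaling, which by construction brings the median of all genes near 0 (here −0.0041), higher genes went from 27.3% to 51.1% of the calls (45.0% with quantile normalization), 17.8% of all genes were called higher, and again all 10 members were.

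**Figure D1:**
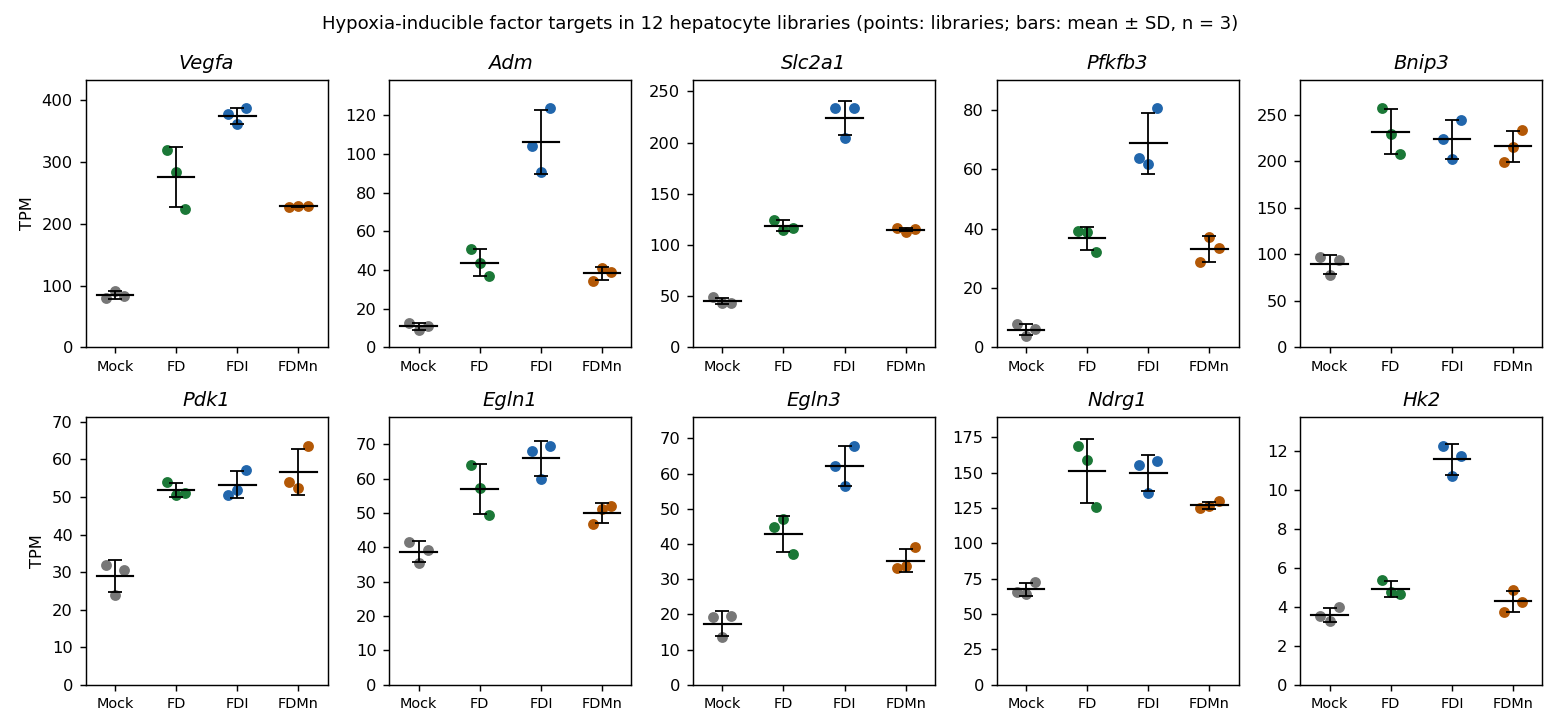
TPM of each of the 10 members (vertical axes from 0) in the Mock, FD, FDI and FDMn groups. Points are the 3 libraries of a group, black bars the mean and SD. All FD libraries lie above all Mock libraries in every panel, and FDI libraries lie above FD for 6 members.

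The secreted factors come first. Positions are those of GENCODE M21 on GRCm38, and all 10 members are protein-coding. Vegfa (chr17:46016993-46032369), the growth factor of blood vessels, was at 79.7, 91.9 and 82.9 TPM in Mock and at 319, 284 and 223 TPM in FD. Each FD library was above each Mock library, and FD replicate 3 was the lowest of its group. The ratio of means was 3.24 and the log2 change 1.67 ± 0.10 (SE; limma adjusted p = 9.87e-08). Adm (chr7:110627661-110629820), which encodes the vasodilator peptide adrenomedullin, was at 12.8, 8.82 and 11.1 TPM in Mock and at 50.9, 43.6 and 37.2 TPM in FD. Its mean rose 4.03-fold, again with no overlap.

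Of the genes of glucose uptake and use, Pfkfb3 (chr2:11471433-11554077) changed most. It makes the allosteric activator of phosphofructokinase and so drives glycolysis. Its TPM was 7.74, 3.99 and 6.18 in Mock and 39.2, 38.7 and 32.1 in FD, a 6.15-fold higher mean (log2 change 2.47 ± 0.18, limma adjusted p = 5.02e-07). Slc2a1 (chr4:119108711-119137983), the glucose transporter GLUT1, went from 49.1, 43.7 and 43.2 TPM to 125, 115 and 117 TPM, a 2.62-fold rise. The 3 FD libraries of Slc2a1 were close together, with a SD of 5.23 TPM. Hk2 (chr6:82725025-82774454), a hexokinase scarce in normal adult liver, was at 3.52, 3.25 and 3.97 TPM in Mock and 5.37, 4.74 and 4.63 TPM in FD. This was the lowest level and the smallest change among the members, 1.37-fold (log2 change 0.37 ± 0.11, limma adjusted p = 0.0208). The Hk2 call was lost without FD replicate 1, Mock replicate 1 or Mock replicate 2 (adjusted p = 0.0717, 0.0506 and 0.0707) and in a fit of the 2 groups alone (0.067), and its range over all 15 alternatives was 0.00328 to 0.0717. Pdk1 (chr2:71873224-71903858), a kinase that holds pyruvate out of the mitochondrial citric acid cycle, was at 31.9, 24.0 and 30.7 TPM in Mock and 54.0, 50.6 and 51.0 TPM in FD, a 1.80-fold rise.

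The remaining members act on mitochondria, stress and oxygen sensing. Bnip3 (chr7:138890836-138909519), a mitochondrial outer membrane protein that marks mitochondria for removal, went from 96.9, 77.6 and 93.7 TPM to 257, 230 and 208 TPM, a 2.59-fold rise. Ndrg1 (chr15:66929318-66969640), a stress and differentiation gene, went from 65.6, 63.9 and 72.6 TPM to 169, 159 and 126 TPM, a 2.25-fold rise. The 2 oxygen sensors differed in size of change. Egln3 (chr12:54178981-54203860) was at 19.1, 13.5 and 19.6 TPM in Mock and 44.7, 47.0 and 37.2 TPM in FD, 2.47-fold higher. Egln1 (chr8:124908587-124949324) was at 41.6, 35.5 and 39.2 TPM and then 63.9, 57.2 and 49.5 TPM, 1.47-fold higher. Their intervals for the log2 change did not meet, 0.97 to 1.57 for Egln3 and 0.32 to 0.75 for Egln1 (95%), and the difference between the genes was not tested. Over the 10 members the limma adjusted p ran from 1.53e-08 for Slc2a1 to 0.0208 for Hk2.

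**Figure D2:**
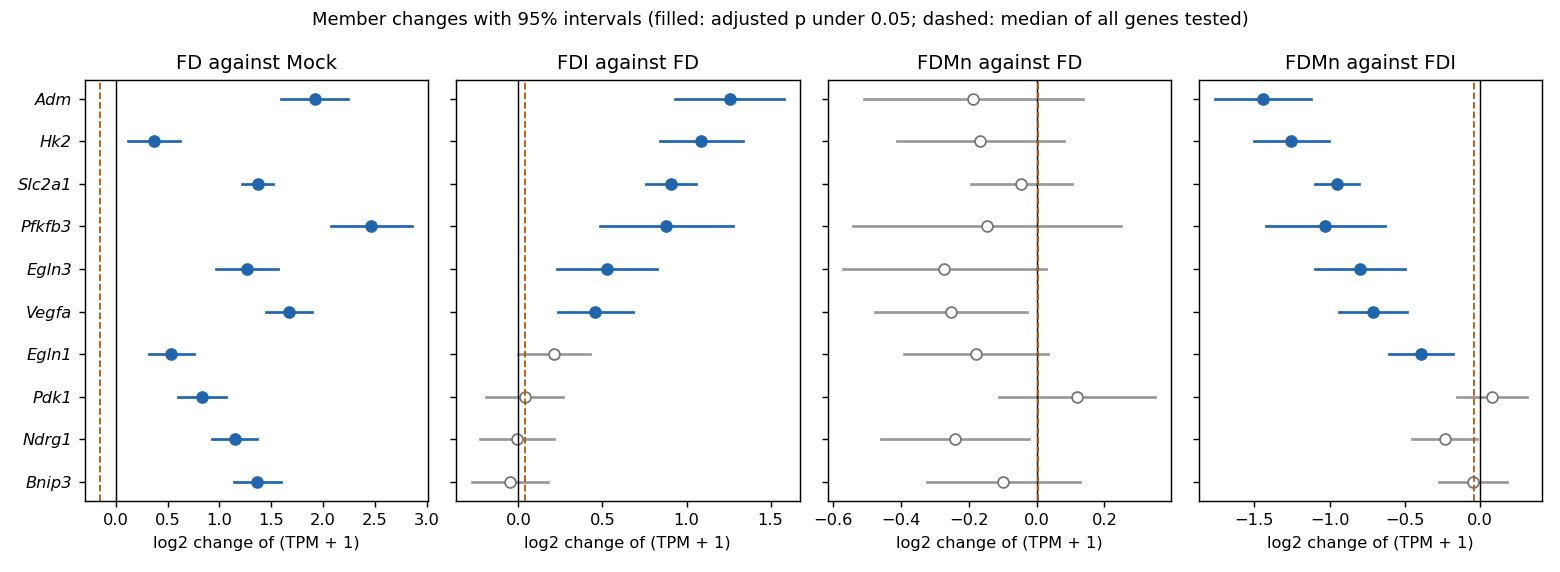
Log2 change of (TPM + 1) with its 95% interval (horizontal axis, own scale in each panel) for the 10 members in 4 comparisons. Filled points passed the adjusted threshold of 0.05 and the dashed line is the median of all genes tested. All points are filled for FD against Mock, 6 for FDI against FD, 0 for FDMn against FD and 7 for FDMn against FDI.

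The second comparison asked what insulin adds to the mimics. Insulin lowers many targets of the fasting hormones. No member was called lower, a count of 0 that is near the 4.35% of all genes called lower. The FD libraries serve in this comparison and in those with Mock and FDMn, which are therefore not independent. Adm, Hk2, Slc2a1, Pfkfb3, Egln3 and Vegfa rose further in FDI over FD, while Bnip3, Pdk1, Egln1 and Ndrg1 did not pass the test. The median log2 change of the 10 was 0.49, against 0.04 for all genes. Among all genes 10.2% were called higher and 4.35% lower, and 70.0% of the calls were higher (56.7% with median-of-ratios scaling, 53.5% with quantile normalization). The same 6 members had no overlap between FDI and FD libraries, all higher, as had 19.6% of all genes.

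Adm was at 104, 90.9 and 124 TPM in FDI, 2.42 times the FD mean (log2 change 1.26 ± 0.15, limma adjusted p = 0.000167). Hk2 was at 12.3, 10.7 and 11.7 TPM, so every FDI library was far above the highest FD library. Its mean was 2.35-fold higher (log2 change 1.09 ± 0.11, limma adjusted p = 6.37e-05), beside 0.37 for FD against Mock. Slc2a1 was at 233, 205 and 233 TPM and rose 1.88-fold (0.91 ± 0.07, limma adjusted p = 4.91e-06). These 3 genes act in vessel tone, glucose trapping and glucose entry. Pfkfb3 was at 63.7, 61.8 and 80.4 TPM, 1.87-fold higher (limma adjusted p = 0.00689).

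Vegfa and Egln3 rose less. Vegfa was at 377, 361 and 386 TPM in FDI, 1.36-fold above FD (log2 change 0.46 ± 0.10, limma adjusted p = 0.0111), and missed the threshold in a fit of the 2 groups alone (adjusted p = 0.0602). Egln3 was at 62.3, 56.4 and 67.9 TPM, 1.45-fold higher (0.53 ± 0.14, limma adjusted p = 0.0234). Its call was the least firm. It was lost without FDI replicate 1, FDI replicate 3 or FD replicate 3, with unfiltered genes and after quantile normalization, and adjusted p ran from 0.0166 to 0.0898 over the 15 alternatives.

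The intervals of the members that did not pass follow. Bnip3 was at 224, 202 and 244 TPM in FDI, overlapping FD, and the 95% interval of its log2 change was −0.28 to 0.18. Ndrg1, at 156, 135 and 158 TPM, had an interval of −0.23 to 0.21, and Pdk1, at 50.7, 52.0 and 57.3 TPM, one of −0.19 to 0.27. Their upper ends lie below the lower ends for Adm (0.93), Hk2 (0.84), Slc2a1 (0.76) and Pfkfb3 (0.49), but the upper end for Pdk1 lies above the lower ends for Vegfa and Egln3 (0.23 each). For Bnip3, Ndrg1 and Pdk1 an insulin change as large as that of Slc2a1 is outside these intervals. Egln1 was at 68.1, 60.0 and 69.5 TPM against an FD mean of 56.9 TPM, a log2 change of 0.21 ± 0.10 with an upper end of 0.43, that did not pass (limma adjusted p = 0.174).

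The third comparison asked what manganese adds to the mimics. None of the 10 members passed the limma test in FDMn against FD in either direction. The smallest unadjusted limma p were 0.0299 for Vegfa and 0.0330 for Ndrg1, both with estimates below 0. Among all genes 7.22% were called higher and 7.9% lower at the adjusted threshold. The member counts of 0 higher and 0 lower are near these shares. The estimate was below 0 for 9 members and above 0 for Pdk1, with a median of −0.17 against 0.0032 for all genes. Every member overlapped between FDMn and FD, whereas 33% of all genes did not overlap.

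Vegfa was at 227, 229 and 228 TPM in FDMn, 0.829 of the FD mean (log2 change −0.25 ± 0.10, limma adjusted p = 0.121). The FDMn libraries lay close together (SD 1.04 TPM) and just above FD replicate 3. Without FD replicate 3 the change was −0.40 and passed (adjusted p = 0.00315). Ndrg1, at 125, 126 and 130 TPM, behaved alike, with −0.24 ± 0.10 in all samples (adjusted p = 0.129) and −0.37 without FD replicate 3 (adjusted p = 0.0085). Whether these 2 genes passed thus depended on that library.

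The other members did not pass with manganese either. Egln3 had the lowest estimate of the 10, −0.27 ± 0.14 (limma adjusted p = 0.208). Slc2a1 was at 117, 113 and 116 TPM, with an interval for the log2 change from −0.19 to 0.10. Bnip3 was at 200, 215 and 233 TPM (−0.33 to 0.13) and Pdk1 at 53.9, 52.4 and 63.6 TPM (−0.11 to 0.35). All 3 genes overlapped FD. The intervals were wider for Adm, at 34.6, 41.3 and 38.9 TPM (−0.51 to 0.14), Pfkfb3, at 28.6, 37.1 and 33.5 TPM (−0.54 to 0.25), and Egln3, at 33.1, 33.8 and 39.0 TPM (−0.57 to 0.03). Egln1 was at 46.7, 51.1 and 52.0 TPM (−0.39 to 0.03) and Hk2 at 3.74, 4.84 and 4.27 TPM (−0.41 to 0.08).

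FDMn and FDI were compared directly, where agent and exposure time cannot be told apart. Vegfa, Adm, Slc2a1, Pfkfb3, Egln1, Egln3 and Hk2 were lower in FDMn, 7 of 10, against 11.9% of all genes. With median-of-ratios scaling 42.7% of all calls were higher rather than 32.3% (48.4% with quantile normalization). The FDMn libraries lay below the FDI libraries for 8 members, Ndrg1 being the eighth, and for 25.6% of all genes. Adm differed most, with a log2 change of −1.44 ± 0.15 (limma adjusted p = 5.59e-05), followed by Hk2 at −1.25 ± 0.11 and Pfkfb3 at −1.03 ± 0.18. Slc2a1 differed by −0.95 ± 0.07, Egln3 by −0.80 ± 0.14 and Vegfa by −0.71 ± 0.10. Egln1, at −0.39 ± 0.10, passed at adjusted p = 0.0168 but not without FDMn replicate 1, FDI replicate 1 or FDI replicate 3 (0.0676, 0.0588 and 0.0632), nor with quantile normalization (0.0577). Bnip3 (−0.05 ± 0.10), Pdk1 (0.08 ± 0.11) and Ndrg1 (−0.23 ± 0.10, adjusted p = 0.133) did not pass.

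Against Mock, which the FD comparison also uses, all 10 members were higher in FDI (12.9% of all genes) and 9 in FDMn (12% of all genes). Higher genes were 33.7% of the calls for FDI and 28.2% for FDMn, and 52.8% and 51.0% with median-of-ratios scaling. FDI means reached 11.5 times Mock for Pfkfb3, 9.76 times for Adm, 4.93 times for Slc2a1, 4.42 times for Vegfa and 3.23 times for Hk2. Hk2 was the exception in FDMn, at 4.28 TPM against 3.58 TPM (log2 change 0.20 ± 0.11, limma adjusted p = 0.173), and it did pass with median-of-ratios scaling and with quantile normalization (adjusted p = 0.0387 and 0.037). In order of mean level, Vegfa, Adm, Slc2a1, Pfkfb3, Egln1, Egln3 and Hk2 all ran Mock, FDMn, FD, FDI. The neighbours FDMn and FD did not pass the test for any of these 7. Nor did FD and FDI for Egln1, or Mock and FDMn for Hk2. For Bnip3 and Ndrg1 the order was Mock, FDMn, FDI, FD, and for Pdk1 Mock, FD, FDI, FDMn, with no neighbours passing among the 3 treated groups.

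The factors and the rest of the oxygen-sensing machinery were counted from a list of 13 genes that leaves out Egln1 and Egln3, and 11 of them were tested. Between FD and Mock 2 rose, 3 fell and 6 did not pass, with a median of −0.08 beside −0.15 for all genes. These shares were near those of all genes, of which 11.2% were called higher and 29.9% lower. Hif1a, the alpha subunit that drives glycolytic targets, was at 47.1, 44.3 and 47.1 TPM in Mock and 44.3, 45.3 and 40.0 TPM in FD, so that 1 FD library lay within the Mock range and the others below it (log2 change −0.09, limma adjusted p = 0.343). Its insulin level was higher, at 50.9, 57.4 and 60.1 TPM, a 1.30-fold rise over FD (limma adjusted p = 0.00663), and FDMn, at 37.8, 39.2 and 41.1 TPM, did not pass against FD. Epas1, the other alpha subunit, went from 11.8, 13.7 and 13.3 TPM in Mock to 23.5, 28.7 and 26.9 TPM in FD and 36.3, 34.98 and 39.5 TPM in FDMn. It thus rose with the mimics (2.03-fold) and again with manganese (1.40-fold, limma adjusted p = 0.00947). With insulin Epas1 was at 24.3 TPM against 26.3 TPM in FD (adjusted p = 0.513).

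Arnt, the shared partner, fell from 20.9 to 17.2 TPM between Mock and FD and to 13.1 TPM with insulin (limma adjusted p = 0.0213 and 0.00845). Cited2, which competes with the factors for their coactivator, fell from 232 to 129 TPM in FD, and from there to 78.9 TPM in FDI and 88.0 TPM in FDMn. Vhl rose 1.40-fold with insulin, from 11.5 to 16.2 TPM (limma adjusted p = 0.0363), and was 9.73 TPM in Mock (adjusted p = 0.200 for FD against Mock). Egln2, the third prolyl hydroxylase, rose 1.90-fold in FD, and Cul2, a scaffold of the Vhl ligase, fell by 0.43 on the log2 scale. With insulin 2 of the 11 rose and 2 fell, and with manganese 1 rose and 1 fell. Among all genes 10.2% were called higher and 4.35% lower with insulin, and 7.22% and 7.9% with manganese. The manganese counts of this list are near the shares of all genes.

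**Figure D3:**
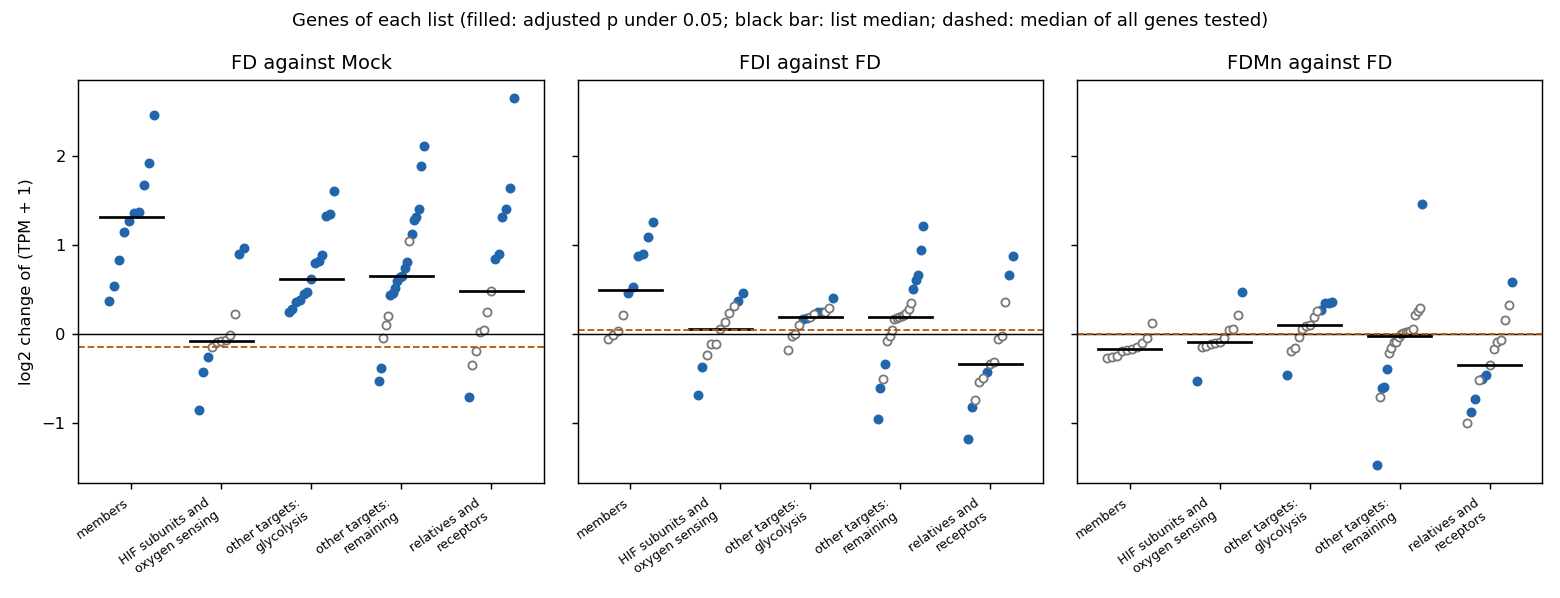
Log2 change of (TPM + 1) (vertical axis) for every tested gene of 5 lists in FD against Mock, FDI against FD and FDMn against FD. Filled points passed the adjusted threshold, black bars are list medians and the dashed line is the median of all genes. In the left panel the members and both lists of other targets sit mostly above 0, and the subunits lie around it.

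Other targets of the same factors were counted next in FD against Mock, from lists of known targets. These lists were chosen with earlier results of these data known. Of 15 further glycolytic targets 13 were tested and all 13 rose, with a median of 0.62. Pfkp, a phosphofructokinase, rose 3.21-fold, the lactate exporter Slc16a3 2.80-fold, the pyruvate kinase Pkm 2.57-fold, Aldoa 1.85-fold and Pfkl 1.76-fold. Of 24 remaining targets 20 were tested, of which 14 rose and 2 fell, with a median of 0.65. Among all genes 11.2% were called higher and 29.9% lower, with a median of −0.15. Plod2 and P4ha1, which hydroxylate collagen, rose 8.09-fold and 2.66-fold, and the mTORC1 inhibitor Ddit4 2.25-fold. The Plod2 ratio starts from a Mock mean of 0.632 TPM, below 1 TPM in every Mock library, against 5.11 TPM in FD. Its change on the log2(TPM + 1) scale was 1.89. Hmox1, which degrades heme, rose 2.76-fold, and the listed genes that fell were Bhlhe40, a clock and stress repressor, and the transferrin receptor Tfrc. Epo was listed at 0 in every library, and Car9, Lox and Cxcr4 were below 1 TPM in every library.

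With insulin the glycolytic list had 5 of 13 higher and 0 lower, among them Pkm (1.33-fold), Tpi1 (1.19-fold) and Ldha (1.18-fold). With limma at an unadjusted p under 0.05 the count of lower genes in this list was 0 as well. The share of all genes at that unadjusted threshold was not computed. Among all genes 10.2% were called higher and 4.35% lower at the adjusted threshold. The count of 0 lower among 13 is therefore near the share of all genes. In the remaining list 5 of 20 rose and 3 fell. Angptl4, a lipase inhibitor, fell to 30.1 TPM from 59.1 TPM and Mxi1, a repressor related to the Myc network, to 15.6 TPM from 24.2 TPM.

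Manganese moved some of these other targets, in both directions. In the glycolytic list 4 of 13 rose and 1 fell, where 7.22% of all genes were called higher and 7.9% lower. Tpi1, Pgk1 and Ldha each rose 1.28-fold to 1.29-fold (limma adjusted p = 0.000972, 0.00193 and 0.0023), with Ldha at 969, 999.9 and 974 TPM against 750, 716 and 824 TPM in FD. In the remaining list 1 of 20 rose and 4 fell. The 1 lower gene of the glycolytic list and the 1 higher gene of the remaining list are near the shares of all genes. Tfrc rose 2.90-fold, Hmox1 fell to 75.6 TPM from 217 TPM, and Angptl4 fell to 38.4 TPM. The list medians were 0.10 and −0.02.

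Within families of related enzymes the member was not always the liver form. Slc2a1 far exceeded Slc2a2, the transporter typical of hepatocytes in the liver, which was between 2.37 and 5.90 TPM over all libraries and did not pass in the FD, insulin or manganese comparison. Pfkfb2 rose 7.35-fold in FD, to 33.3 ± 3.74 TPM, and did not pass with insulin (adjusted p = 0.241). The liver form Pfkfb1 was at 4.23 TPM in Mock and 5.24 TPM in FD, and fell to 2.53 TPM in FDI and 2.73 TPM in FDMn. Pdk4, a fasting-induced kinase of the same family as Pdk1, rose from 7.04 to 18.8 TPM in FD and fell to 7.85 TPM in FDI and 9.90 TPM in FDMn. Pdk2 rose 1.84-fold in FD, to 49.8 TPM. It too was lower in FDI, at 36.8 TPM, and in FDMn, at 34.6 TPM (limma adjusted p = 0.0314 and 0.0141 against FD). Pdk1 passed neither the insulin nor the manganese test.

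**Figure D4:**
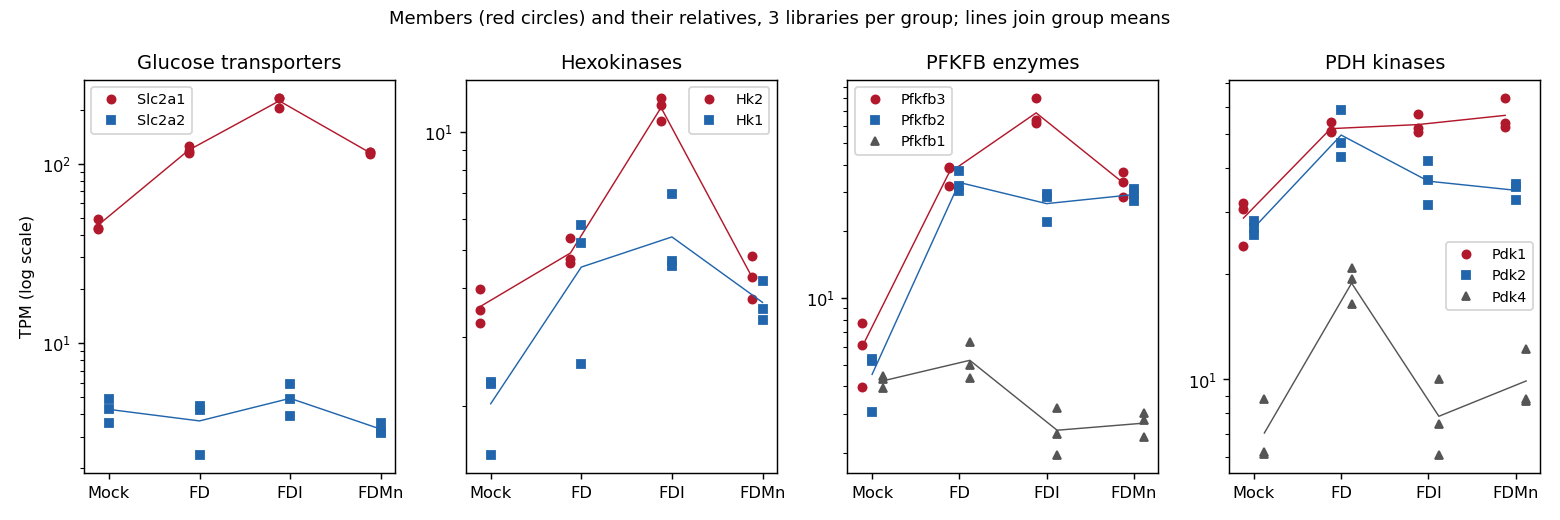
TPM on a log axis for Slc2a1, Hk2, Pfkfb3 and Pdk1 (red circles) and related enzymes in the 4 groups, 3 libraries each, with lines through group means. Pdk4, Pdk2 and Pfkfb1 lie lower in FDI and FDMn than in FD, while Slc2a1, Hk2 and Pfkfb3 are highest in FDI.

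Receptors for the secreted members were scarce. The Vegfa receptors Flt1 and Kdr were below 1 TPM in every library, and Calcrl, the receptor body for adrenomedullin, likewise. Its partner Ramp2 was between 0 and 2.71 TPM and below the filter. The co-receptor Nrp1 was at 38.4 TPM in Mock and fell to 23.2 TPM in FD. Pgf, a relative of Vegfa, rose 3.47-fold in FD and 1.88-fold with insulin, to 39.2 ± 4.08 TPM. Vegfb was at 60.5 TPM in Mock and 62.3 TPM in FD (limma adjusted p = 0.651). Of the 13 tested relatives and receptors 6 rose and 1 fell in FD, beside 11.2% and 29.9% of all genes. With insulin 2 rose and 3 fell, beside 10.2% and 4.35% of all genes. With manganese 1 rose and 4 fell, beside 7.22% and 7.9%. The counts of higher genes with either addition are near the shares of all genes.

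Other genes shared the members' profiles over the 12 libraries. Likeness was measured as the root mean square difference of centred and scaled values among 8339 protein-coding genes with a mean TPM of at least 5. For Pfkfb3 close genes were Ppp1r3b (0.104) and Gys1 (0.165), where the median of all genes was 1.52. Ppp1r3b, a glycogen-targeting subunit, was at 3.63 ± 0.578 TPM in Mock, 14.3 ± 1.66 in FD, 19.6 ± 2.23 in FDI and 12.3 ± 0.795 in FDMn. For Vegfa they were Akap2 (0.158), Uvrag (0.166) and Ppp3r1 (0.167). For Bnip3 they were Rasgef1b (0.121), Cblb (0.151) and the mitochondrial carrier Slc25a25 (0.154), all high in the 3 treated groups. For Egln3 they included the clock gene Per2 (0.177) and Nfil3 (0.232). Per2 was at 4.48 TPM in Mock, 10.8 in FD, 17.5 in FDI and 9.30 in FDMn, the same order as Egln3. Genes picked by likeness over these same libraries share such an order largely by construction.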

How the data were processed

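Poly-A RNA of 12 libraries was sequenced. The authors deposited gene-level TPM (transcripts per fixed library total) for 36144 genes. The submitters' processing notes name kallisto 0.44.0, GRCm38.p6 and, with no role, DESeq2. Annotation release, filters, strand and the summing of transcripts were not stated, so overlapping and antisense genes cannot be told apart.

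A gene was tested if 3 of 12 samples reached 1 TPM, which held for 11544. limma 3.58.1 in R 4.3.3 fitted log2(TPM + 1) by group over all 12 samples with an intensity trend, two-sided, with Benjamini-Hochberg adjustment over all genes tested and a threshold of 0.05. This scale understates changes of low genes. Depth is unknown, since TPM keeps no read number, and no counting interval is given. The fit was tested on simulated data. Groups came from sample titles. Because separate preparations are not mentioned in the labels, the p-values cover only the spread among these libraries, possibly a technical one.

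Same-numbered libraries did not deviate together (18 pairs, correlations −0.10 to 0.07), so replicate numbers were not used as pairs. The alternatives were other pseudocounts, filters, scalings and designs, and leaving out each replicate. Gene positions came from GENCODE M21 and promoters from RefSeq. The members and lists were chosen with earlier results of these data known. All members are described. Listed genes are named by the smallest adjusted p (5 per list for FD against Mock, 3 each for FDI and FDMn against FD), and the main subunits, receptors and liver relatives always. Genes of similar profile are taken from the 3 closest to Vegfa, Pfkfb3, Bnip3 and Egln3. A few genes that the rule takes enter the counts but are not reported here.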

Additional observations from a re-analysis of the deposited data

How the results depend on the processing

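For each member and comparison 15 alternatives were run: pseudocounts of 0.1 and 5, no filter and a filter at 5 TPM, median-of-ratios scaling, quantile normalization, a fit of the 2 groups compared, no intensity trend, a replicate block, and leaving out each of 6 libraries. No called change turned sign. For FDI against Mock all 150 outcomes kept their side of the threshold. The others kept it in 146 of 150 (FD against Mock), 148 (FDMn against FD), 144 (FDI against FD), 145 (FDMn against FDI) and 148 (FDMn against Mock), and the exceptions are given in the report, save that Ndrg1 passed in FDMn against FDI in a fit of the 2 groups alone (adjusted p = 0.0445). Leaving out 1 library gave 9 to 10 members higher in FD against Mock, where 10.1% to 10.8% of all genes were called higher. In FDI against FD 5 to 6 were higher (6.35% to 12.5% of all genes). In FDMn against FD 0 to 2 were lower (4.68% to 8.84%), with 2 only without FD replicate 3. In FDMn against FDI 6 to 7 were lower (7.99% to 8.57%). Against Mock, 10 were higher in FDI (10.5% to 11.5%) and 9 in FDMn (10.0% to 10.9%). With the replicate block the counts were 10, 6, 0, 7, 10 and 9 in the same order. The shares of all genes in the same directions were 11.1%, 9.0%, 7.16%, 10.8%, 12.4% and 11.7%. No correlation between same-numbered libraries passed 0.1. TPM keeps no depth, so the precision of the low Hk2 values is known only from the spread of libraries.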
